A study of Mus musculus with 61 samples.

Results

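The genes described here encode neuropeptides and proteins that are widely used to tell classes of inhibitory interneurons apart. The peptides are somatostatin (Sst), neuropeptide Y (Npy), vasoactive intestinal polypeptide (Vip), cholecystokinin (Cck) and corticotropin-releasing hormone (Crh), the calcium-binding proteins are parvalbumin (Pvalb) and calretinin (Calb2), and reelin (Reln) is a secreted matrix protein. The genes were chosen by name, as a family, with earlier results of these data known. Each was followed with the probe of the highest mean signal among those that its RefSeq accession assigns to the gene. Of the 8 genes, 7 had such a probe and are measured here, and Crh was not analysed here. Probes of Sst, Npy, Cck, Pvalb, Calb2 and Reln were above background in each of the 61 fractions, and that of Vip in 60 of them. In the RefSeq annotation of GRCm38.p6, the measured genes lie apart from each other: Sst at chr16:23889573-23891342, Npy at chr6:49822710-49829507, Vip at chr10:5639193-5647617, Cck at chr9:121489824-121495694, Pvalb at chr15:78191112-78206400, Calb2 at chr8:110142526-110168212 and Reln at chr5:21884454-22344705.

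Cortical and hippocampal inhibitory interneurons fall into largely separate classes that express parvalbumin, somatostatin or vasoactive intestinal polypeptide, and these classes contact different parts of their target cells. None of the genes is restricted to interneurons of the cortex. Parvalbumin is also abundant in Purkinje cells and interneurons of the cerebellum, calretinin and reelin in cerebellar granule cells and in cells of the olfactory bulb, and cholecystokinin is also made by many excitatory cells of the cortex and hippocampus. A fraction is a mixture of all of its cells, so that fewer cells of a type and less RNA per cell cannot be told apart.

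The fractions came from the brains of 6 male C57BL/6J mice at 8 weeks of age, with no treatment or genetic change, which were perfused with RNAlater. Each brain was cut whole in a single plane, into slices of about 1 mm that ignore anatomical borders, and every fraction was hybridised to 1 array. The C and Co mice were cut coronally into 13 and 16 fractions from posterior to anterior, S and So sagittally into 9 and 10 from left to right, and H and Ho horizontally into 6 and 7 from dorsal to ventral. The o marks a slightly oblique cut, so that the angle and the mouse cannot be told apart. A fraction of C, S or H and the fraction of Co, So or Ho that the study assigned to it form a pair, written c1 to c13, s1 to s9 and h1 to h6, and the 28 pairs of 56 fractions gave the error of the tests. The study chose these pairs by their correlation on the same arrays, and 1 mouse stood on each side, so that p-values measure the spread between paired fractions and not between many mice.

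Arrays had between 57.9% and 73.1% of their probes well above background, and none had a saturated spot. The arrays shared 16 slides and 5 scan days, and neighbouring fractions of a mouse mostly lay on 1 slide. Levels below are log2 of a probe's signal minus the 75th percentile of its array, so that 0 is the level of that percentile and 1 unit is a doubling. They are set against each other only within a gene, because different probes have different brightness. Area markers, averaged by area, placed the coronal fractions. Olfactory bulb markers peaked in C13 and Co15, isocortex markers in C11 and Co12, striatum markers in C9 and Co11, hippocampus markers in C6 and Co8, and cerebellum markers in C3 and Co5. Of the medulla and pons markers, Slc6a5, Hoxb3 and Hoxa5 each peaked in C1 and Co2.

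The 7 genes varied over the 28 pairs at an adjusted p from 2.37e-18 for Vip to 1.17e-07 for Npy (limma's moderated F test, Benjamini-Hochberg adjustment over all probes), where 61.2% of all probes tested passed the same threshold of 0.05. Over the coronal pairs, all 7 varied, against 47% of all probes. Over the sagittal pairs, 5 varied, all but Npy and Reln, against 11.1%, and over the horizontal pairs Vip, Cck and Pvalb varied, against 11.9%. For Npy, taking the mouse as a block made the sagittal and horizontal variation pass as well, with adjusted p of 0.0019 and 0.0103. With only the pairs of its own plane in the fit, the sagittal call was lost for Sst (adjusted p = 0.0684), Pvalb (adjusted p = 0.152) and Calb2 (adjusted p = 0.0553), and the horizontal call for Pvalb (adjusted p = 0.125). Leaving out 1 array also ended the sagittal call of Sst for any of 9 sagittal arrays (adjusted p up to 0.0958), that of Pvalb for S1 (adjusted p = 0.362) or So2 (adjusted p = 0.069), and the horizontal call of Pvalb for H5 (adjusted p = 0.0504).

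**Figure D1:**
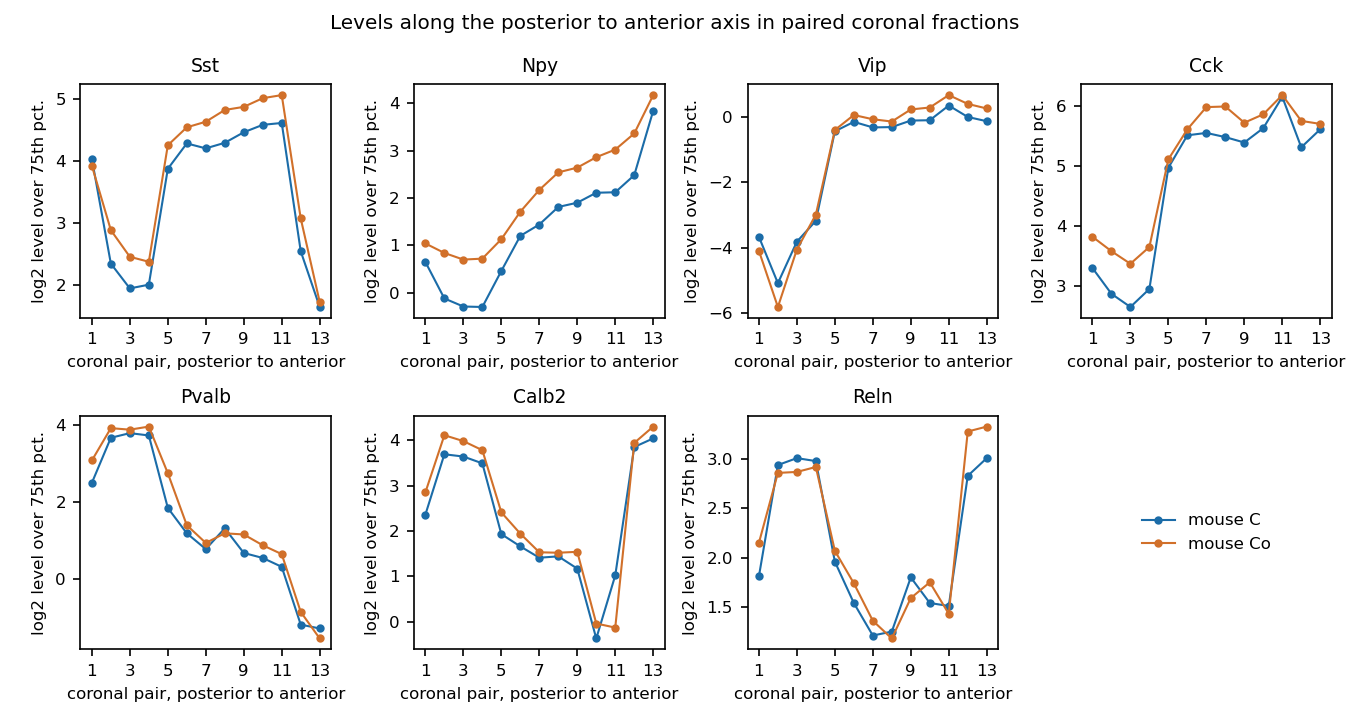
Log2 level over the 75th percentile of the array (vertical axis) in the coronal pairs from posterior, pair 1, to anterior, pair 13, with 1 panel per gene and a line for each of the mice C and Co. Vip, Cck and Npy were low in pairs 1 to 4, Pvalb was high there, Sst fell at pairs 12 and 13, and Calb2 and Reln were high towards both ends.

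Vip had the widest range of the 7 genes. Among the 60 fractions where its probe was above background, levels ran from −5.09 in C2 to 1.59 in So1, a span of 6.68 on the log2 scale, against spans of 2.42 for Reln to 5.50 for Pvalb. Vasoactive intestinal polypeptide marks interneurons of the cortex that mainly inhibit other interneurons, and is also made by clock cells of the suprachiasmatic nucleus. In the C mouse, the 4 posterior fractions C1 to C4 had levels of −3.67, −5.09, −3.82 and −3.18, and the 9 fractions from C5 to C13 lay between −0.44 and 0.35. In the Co mouse, the posterior fractions Co2 to Co5 had levels of −4.10, −5.82, −4.06 and −2.99, and the probe was not above background in Co3. The rise from c4 to c5 was the step in both mice, and the groups of posterior and anterior fractions did not overlap. The share of all probes with no such overlap was not counted, so that a lack of overlap is only a description, here and for the genes and contrasts below. The anterior pairs c10 to c13 were 19.9-fold higher than the posterior pairs c1 to c4, with a log2 difference of 4.31 ± 0.12 (SE, adjusted p = 2.71e-23), and the difference was 3.97 in C and 4.65 in Co. Away from the coronal axis, the highest levels were those of the first fractions from the surface of the brain, 1.59 in So1 and 1.58 in Ho1, which have no partner.

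Cck, which encodes cholecystokinin, a peptide of cortical and hippocampal neurons, followed Vip. Its levels in C1 to C4 were 3.30, 2.87, 2.65 and 2.95, and in Co2 to Co5 they were 3.82, 3.58, 3.37 and 3.65. Anterior levels in C10 to C13 were 5.63, 6.15, 5.31 and 5.61, and in Co11, Co12, Co14 and Co15 they were 5.86, 6.18, 5.75 and 5.70. No anterior fraction reached down to the posterior ones. The difference was 2.50 ± 0.12 (SE), which is 5.66-fold, at an adjusted p of 1.86e-17 by limma. The profiles of Cck and Vip had a Pearson's r of 0.94 over all 61 fractions, and of 0.94 within the coronal, 0.95 within the sagittal and 0.91 within the horizontal fractions. Neighbouring fractions share tissue and slides, so that such coefficients are descriptions.

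Npy encodes neuropeptide Y, which is made by cortical and striatal interneurons, by cells of the olfactory bulb and by neurons of the arcuate nucleus. It rose along nearly the whole coronal series and not in 1 step. In C, the level was 0.65 in C1, fell to −0.30 in C4, and was 0.46 in C5, 1.44 in C7, 2.11 in C10 and 3.84 in C13. In Co, it was 1.04 in Co2, 0.72 in Co5, 2.17 in Co8, 2.86 in Co11 and 4.17 in Co15, and the highest level of all fractions was 4.45 in Co16, the most anterior fraction of that mouse. The anterior pairs were 6.03-fold higher than the posterior ones (2.59 ± 0.20 on the log2 scale, SE, adjusted p = 1.24e-12), and the fractions did not overlap. The middle pairs c5 to c9 lay near the mean of both ends, with a difference from it of 0.00 ± 0.16 (SE), which was 0.05 in C and −0.05 in Co.

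Sst, the gene of somatostatin, a peptide of dendrite-targeting interneurons and of the periventricular hypothalamus, had another coronal shape. In C, the level was 4.03 in C1, then 2.34, 1.94 and 2.00 in C2 to C4, between 3.87 and 4.61 in C5 to C11, and 2.54 and 1.64 in C12 and C13. In Co, it was 3.92 in Co2, between 2.37 and 2.88 in Co3 to Co5, between 4.25 and 5.06 in Co6 to Co12, and 1.72 in Co15. Both mice thus had low levels in the fractions of the cerebellum and of the olfactory bulb, and the lowest of all fractions was C13, where olfactory bulb markers peaked. C1 and Co2, where Slc6a5, Hoxb3 and Hoxa5 peaked, were higher than the cerebellar fractions beside them, and Co1, the most posterior fraction of its mouse, was at 4.75, in the range of the forebrain fractions. The middle pairs were 2.44-fold higher than the mean of both ends (1.29 ± 0.09, SE, adjusted p = 2.92e-12). The highest levels of each mouse still lay in the anterior pairs c10 and c11, at 4.58 and 4.61 in C and 5.01 and 5.06 in Co. The anterior pairs were also higher than the posterior ones, by 0.79 ± 0.12 (SE, adjusted p = 1.36e-06), but the fractions overlapped, since each end held high and low fractions, and this call was lost with the slide as a fixed block (adjusted p = 0.489).

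The gene whose log2 profile was most like that of Sst, among 12613 genes with 1 probe each, was Sstr2, which encodes a somatostatin receptor (r = 0.93 over 61 fractions, 0.94 within the coronal, 0.90 within the sagittal and 0.15 within the horizontal fractions). The genes ranked 2 and 3 came close, with r of 0.91 and 0.90 over 61 fractions. Within the coronal fractions they were at 0.94 and 0.98, so that such a match was not particular to the receptor. In C, Sstr2 was at −2.73 in C3, 0.42 in C10 and −3.13 in C13, and in Co at −2.71 in Co4, 1.12 in Co12 and −1.54 in Co15, so that it was low in the same fractions of cerebellum and olfactory bulb as Sst. The promoters of these genes are shown because both hold the palindrome TGACGTCA, the cAMP response element, a binding site of the factor CREB that is well known from the somatostatin gene. Those of Vip, Cck and Cort are shown because these genes had alike profiles and hold its core TGACG. Each line is the 100 bases before the start that the RefSeq promoter sequences give for the gene in GRCm38.p6, read 5′ to 3′ on the strand of the gene. For Sst and Vip this start lies inside the full extent of the annotated gene given above. Capitals mark the palindrome or core on either strand.
Sst, chr16:23890845-23890944, minus strand: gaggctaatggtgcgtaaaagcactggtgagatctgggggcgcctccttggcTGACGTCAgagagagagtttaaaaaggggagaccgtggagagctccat
Sstr2, chr11:113619227-113619326, plus strand: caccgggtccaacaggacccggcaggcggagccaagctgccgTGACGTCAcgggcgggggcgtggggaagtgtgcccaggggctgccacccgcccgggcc
Vip, chr10:5639118-5639217, plus strand: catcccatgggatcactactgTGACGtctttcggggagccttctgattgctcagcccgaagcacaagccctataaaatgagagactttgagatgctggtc
Cck, chr9:121495695-121495794, minus strand: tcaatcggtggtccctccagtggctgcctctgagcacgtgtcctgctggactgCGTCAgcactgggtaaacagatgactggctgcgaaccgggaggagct
Cort, chr4:149126764-149126863, minus strand: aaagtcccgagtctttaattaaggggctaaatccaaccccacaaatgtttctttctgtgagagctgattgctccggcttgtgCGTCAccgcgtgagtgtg

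The palindrome begins 48 bases before that start in Sst and 58 before it in Sstr2. Over the 250 bases before the start, on both strands, 1.55% of the 32851 promoters in the table hold TGACGTCA and 17.8% hold TGACG, which every palindrome also contains. The windows of Npy, Pvalb and Reln hold neither, and those of Calb2 and Crh were not analysed here. The promoters of the other genes with alike profiles were not looked at singly, and a match describes these letters only.

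**Figure D2:**
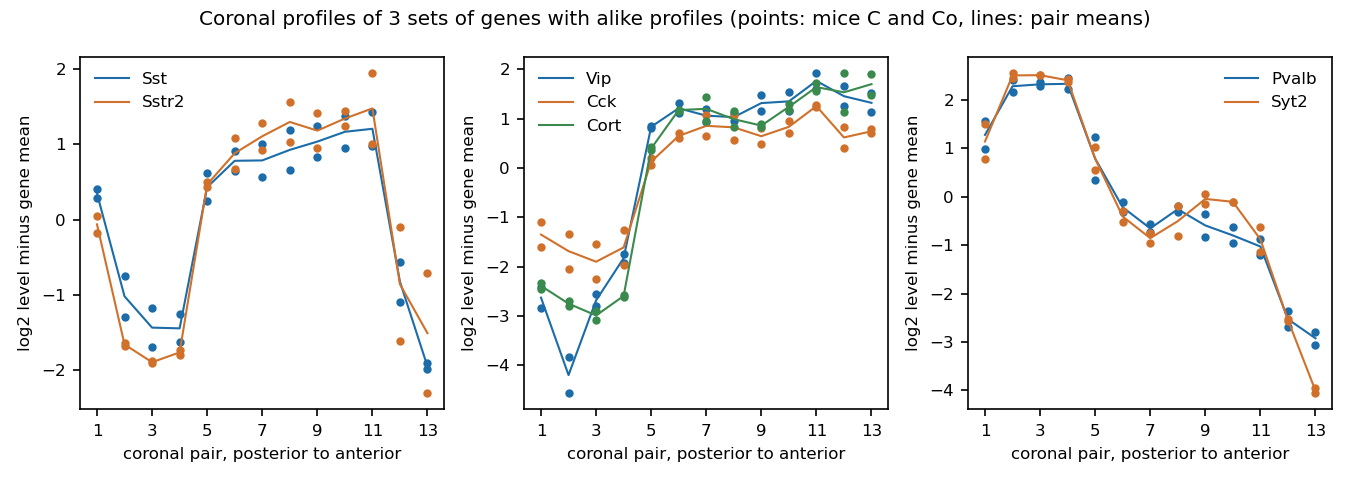
Log2 level minus the mean of the gene over the coronal pairs (vertical axis) for Sst with Sstr2, Vip and Cck with Cort, and Pvalb with Syt2, from posterior to anterior pairs. Points are the mice C and Co and lines are pair means, and the genes of a panel have alike but not identical profiles. Sst and Sstr2 are low in pairs 2 to 4 and in pair 13, Vip, Cck and Cort are low in pairs 1 to 4, and Pvalb and Syt2 are highest in pairs 2 to 4.

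Cort, the gene of cortistatin, a peptide related to somatostatin, was among the 3 genes most like Vip (r = 0.95) and most like Cck (r = 0.96), and not among those of Sst. It was at −4.86 in C2 and −4.97 in Co3, and at −0.60 in C11 and −0.45 in Co12. The other genes nearest to Vip were Rprml (r = 0.95) and Lhx2 (r = 0.95), and those nearest to Cck were Wnt10a (r = 0.96) and Mef2c (r = 0.96), a transcription factor of cortical neurons. Nearest to Npy were Cfap20 (r = 0.90), S100a3 (r = 0.90) and Med10 (r = 0.89).

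Pvalb ran opposite to Npy, Vip and Cck over the coronal fractions (r = −0.88, −0.83 and −0.83), but not to Sst (r = −0.10), and over the horizontal fractions r was 0.22, 0.20 and 0.51 with the same 3 genes. Parvalbumin buffers calcium in fast-spiking cells. In C, its levels were 2.49, 3.66, 3.78 and 3.72 in C1 to C4 and 0.54, 0.31, −1.19 and −1.29 in C10 to C13. In Co, they were 3.07, 3.91, 3.87 and 3.95 in Co2 to Co5 and 0.87, 0.64, −0.86 and −1.55 in Co11, Co12, Co14 and Co15. The lowest fractions of both mice were those of the olfactory bulb, the highest those around the peak of the cerebellum markers, and the groups did not overlap. The anterior pairs were 14.6-fold lower than the posterior ones, with a log2 difference of −3.87 ± 0.16 (SE, adjusted p = 4.38e-19), and of −3.82 in C and −3.92 in Co. Syt2, a synaptic vesicle protein of fast-spiking and cerebellar synapses, had the most alike profile (r = 0.95), followed by Hpcal1 and Ccdc92 (r = 0.94 for both).

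Calb2, the gene of calretinin, was high at both ends and lowest between them. In C, it was 3.69, 3.64 and 3.49 in C2 to C4, −0.37 in C10, 1.02 in C11, and 3.85 and 4.04 in C12 and C13. In Co, it was 4.11, 3.98 and 3.78 in Co3 to Co5, −0.04 in Co11, −0.13 in Co12, 2.41 in Co13, and 3.94, 4.30 and 4.22 in Co14 to Co16. Within 2 fractions of each mouse, the level thus went from the lowest to near the highest of the series. The middle pairs were 2.18-fold lower than the mean of both ends (−1.13 ± 0.18, SE, adjusted p = 9.52e-06). The anterior pairs were 2.66-fold lower than the posterior ones (−1.41 ± 0.22, SE, adjusted p = 3.54e-06), although the anterior fractions spread from −0.37 to 4.30 around the posterior ones. With the slide as a fixed block, neither call remained, at differences of −1.06 (adjusted p = 0.0709) and −1.41 (adjusted p = 0.470). Both other probes of Calb2 gave an anterior minus posterior difference close to this, −1.55 and −1.50.

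Reln followed Calb2 over the coronal fractions (r = 0.88 within the coronal fractions and 0.80 over all 61). Reelin is secreted by Cajal-Retzius cells, by interneurons of the cortex, by cerebellar granule cells and by mitral cells of the olfactory bulb. In C, it was 2.94, 3.01 and 2.98 in C2 to C4, 1.21 and 1.25 in C7 and C8, and 2.83 and 3.01 in C12 and C13. In Co, it was 2.86, 2.87 and 2.92 in Co3 to Co5, 1.18 in Co9, and 3.28 and 3.33 in Co14 and Co15. The middle pairs were 1.92-fold lower than the mean of both ends (−0.94 ± 0.07, SE, adjusted p = 2.22e-12). Anterior and posterior pairs differed less, by −0.36 ± 0.08 (SE, adjusted p = 0.000722), which was lost with the slide as a random block (adjusted p = 0.0732). Against Sst, whose coronal profile has the opposite shape, r was −0.92 for Reln and −0.87 for Calb2 within the coronal fractions. Among the genes nearest to Calb2 were Rasa4 (r = 0.92) and Ctbp2 (r = 0.91), and those nearest to Reln were Usp3 (r = 0.91), 6430571L13Rik (r = 0.90) and Stag1 (r = 0.90).

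**Figure D3:**
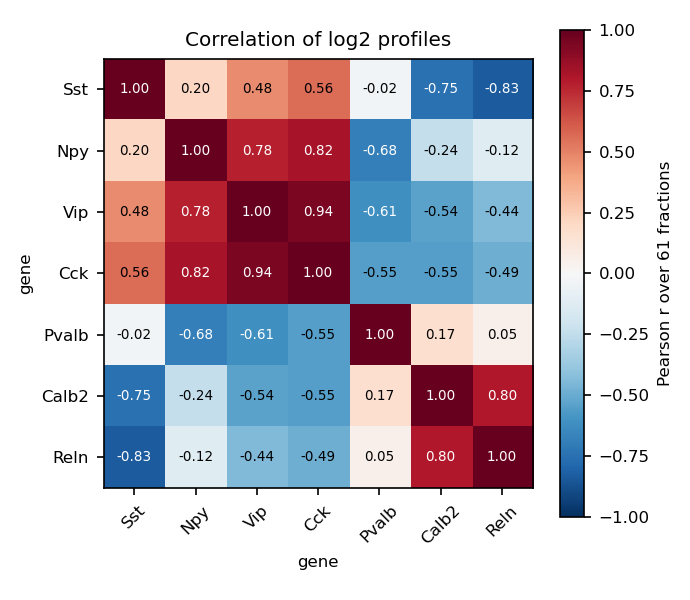
Pearson's r between the log2 profiles of the 7 genes over the 61 fractions, from −1 in blue to 1 in red, with the value in each cell. Npy, Vip and Cck form 1 block with r from 0.78 to 0.94, Calb2 and Reln another with r of 0.80, and Sst is negative to both of the latter.

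In all, 4 of the 7 genes were higher in the anterior than in the posterior coronal pairs, where 19.9% of all probes were, and 3 were lower, where 27.8% were. Against the mean of both ends, Sst, Vip and Cck were higher in the middle pairs, where 15.5% of all probes were. For Vip and Cck, only the posterior end lay below the middle. Mean levels in the posterior, middle and anterior pairs were −4.09, −0.16 and 0.22 for Vip and 3.27, 5.53 and 5.77 for Cck. Calb2 and Reln were lower in the middle pairs than the mean of both ends, where 19.5% were, and Npy and Pvalb did not pass. Pvalb was at −0.31 ± 0.13 (SE, adjusted p = 0.0604), and passed with the mouse as a block (adjusted p = 0.0188). The median of all probes was −0.11 for anterior minus posterior, and scaling each array to its median in place of the 75th percentile moved it to 0.04, which changed no call of these genes.

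**Figure D4:**
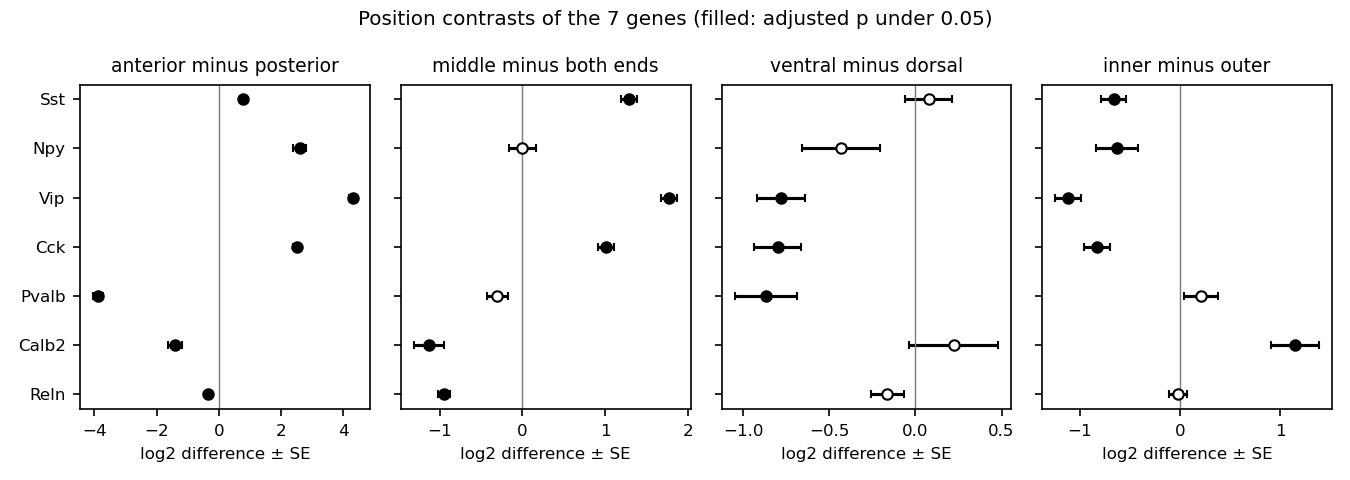
Log2 differences with SE from limma (horizontal axis) for 4 position contrasts of pair means, 1 row per gene. Filled points passed an adjusted p of 0.05 and open points did not. Anterior minus posterior spans from −3.87 for Pvalb to 4.31 for Vip, and the other contrasts span less over the genes, although for Sst and Reln the difference between middle and ends was the larger.

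Across the sagittal plane, the 4 peptide genes were lower in the inner pairs s4 to s6 than in the outer pairs s1, s2, s8 and s9, against 9.09% of all probes, and Calb2 was higher, against 10.5%. Vip fell from 0.90 in S1 to −0.96 in S4 and rose again to 0.59 in S9, and in So it was 0.82 in So2, −0.72 in So6 and 0.26 in So10. The inner pairs were 2.17-fold lower for Vip (−1.12 ± 0.13, SE, adjusted p = 1.1e-07), and the inner and outer fractions did not overlap. The same contrast was −0.83 ± 0.13 for Cck (adjusted p = 1.13e-05), −0.66 ± 0.13 for Sst (adjusted p = 0.000208) and −0.63 ± 0.21 for Npy (adjusted p = 0.0319, SE in each), again with no overlap of fractions. The call of Npy was lost with normexp background correction and quantile normalization together (−0.55, adjusted p = 0.0659), and without any 1 of 8 sagittal arrays, at an adjusted p of up to 0.0996 without S9.

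Calb2 was 2.21-fold higher in the inner than in the outer sagittal pairs (1.15 ± 0.24, SE, adjusted p = 0.000644), but the fractions overlapped, and the low levels were those of 3 fractions at the edges of the brain. It was at 0.40 in S1, −0.81 in So2 and 0.64 in S9, while So10, the partner of S9, was at 2.67, and all other paired fractions lay between 2.30 and 3.00. The isocortex markers peaked in S1 and So2. Pvalb was also low in S1 (0.97), So2 (1.47) and S9 (1.53) against 1.91 to 2.89 in the other paired fractions, and its inner minus outer difference did not pass (0.21 ± 0.17, SE, adjusted p = 0.473). Reln was at −0.02 ± 0.09 (SE, adjusted p = 0.955).

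No difference between the right and the left pairs passed for any of the 7 genes by limma, where 0.137% of all probes did. An unadjusted p under 0.05 was found for 1 of the 7, Calb2 (0.47 ± 0.22, SE, adjusted p = 0.644), and for 2741 of 36568 probes. In the S mouse, whose cut was aligned to the midline, the mirrored fractions S2 and S8 differed by −0.22 to 0.14 over the 7 genes. For S3 and S7 the range was −0.28 for Vip to 0.14 for Calb2, and for S4 and S6 it was −0.21 for Pvalb to 0.37 for Calb2. At the edges, S9 was higher than S1 by 0.54 for Sst and 0.56 for Pvalb and lower by 0.31 for Vip and 0.35 for Reln.

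**Figure D5:**
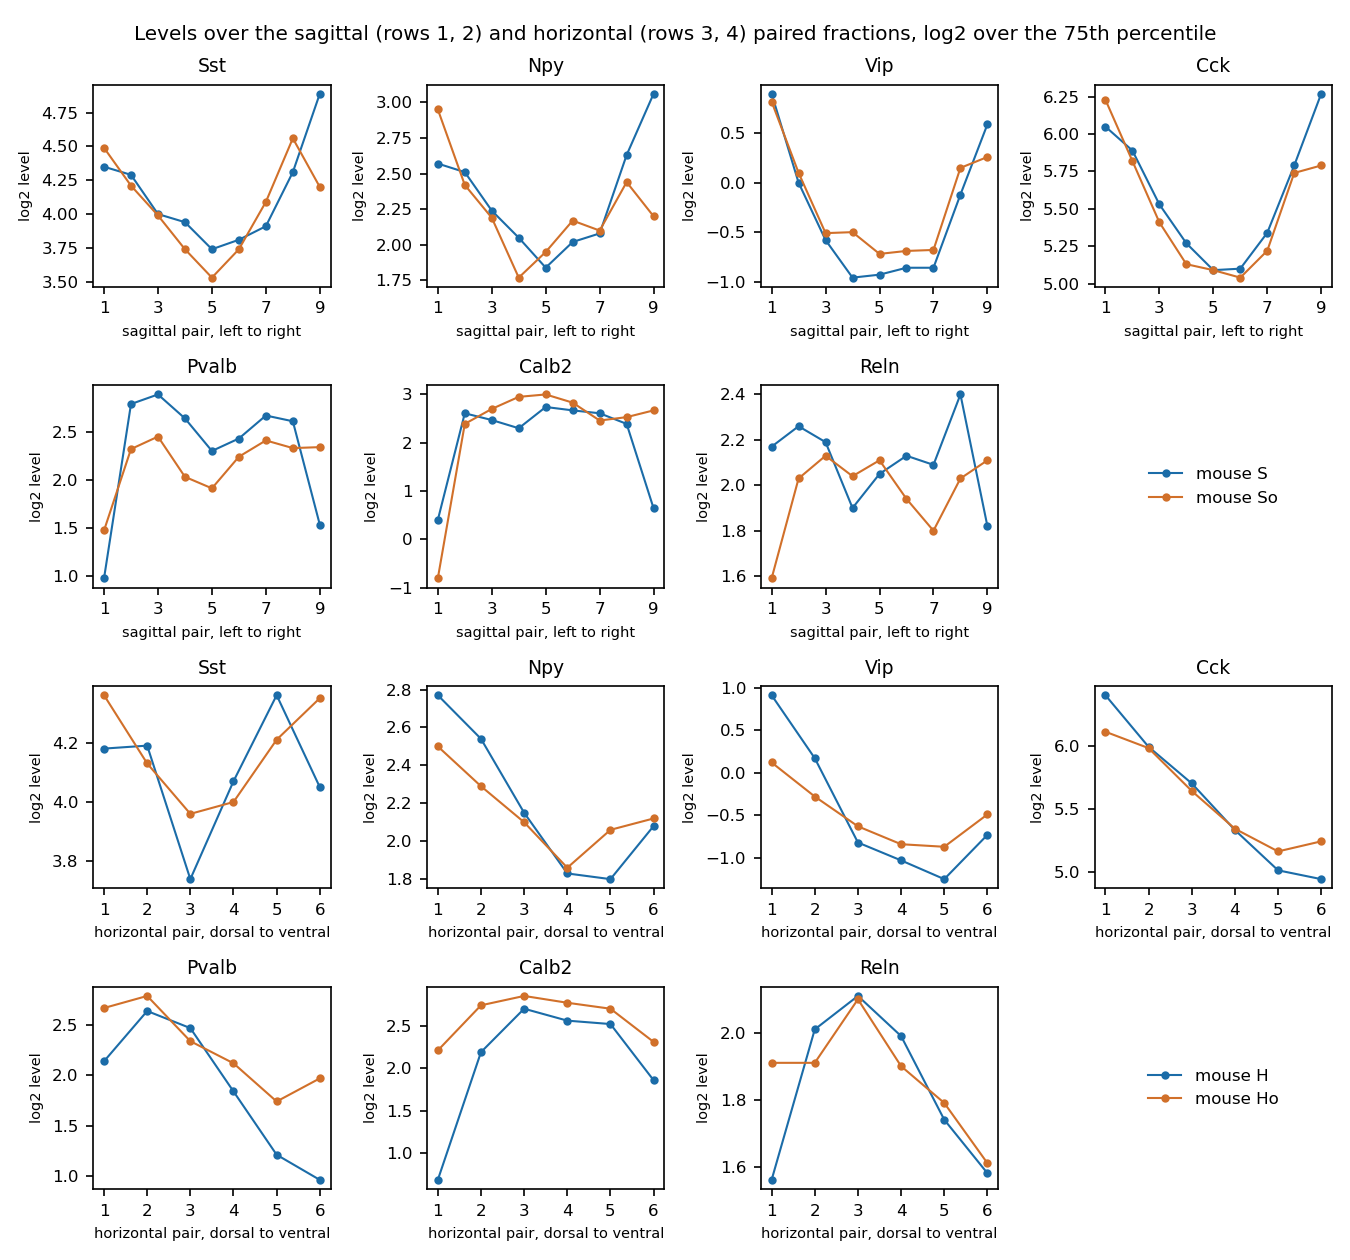
Log2 level over the 75th percentile in the sagittal pairs from left to right (upper 2 rows, mice S and So) and in the horizontal pairs from dorsal to ventral (lower 2 rows, mice H and Ho), 1 panel per gene with its own vertical axis. The 4 peptide genes are lowest near the middle of the sagittal pairs, and Cck decreases from dorsal to ventral.

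From dorsal to ventral, Vip, Cck and Pvalb fell, against 5.16% of all probes, and none of the 7 rose, against 7.4%. Cck was at 6.40, 5.99 and 5.70 in H1 to H3 and at 5.33, 5.01 and 4.94 in H4 to H6. In Ho2 to Ho4 it was at 6.11, 5.98 and 5.64, and in Ho5 to Ho7 at 5.34, 5.16 and 5.24. Dorsal and ventral fractions did not overlap, and the ventral pairs were 1.74-fold lower (−0.80 ± 0.14, SE, adjusted p = 9.01e-05). The difference was −0.78 ± 0.14 for Vip (adjusted p = 0.000146) and −0.87 ± 0.18 for Pvalb (adjusted p = 0.00105, SE in both). The call of Vip was lost with the slide as a fixed block (−0.55, adjusted p = 0.106), and that of Pvalb with fractions paired by their own number (−0.69, adjusted p = 0.297). Npy was at −0.43 ± 0.23 (SE, adjusted p = 0.257), and passed with the mouse as a block (adjusted p = 0.00327). Ho1, the most dorsal fraction of its mouse and that of its isocortex markers, held the highest level of Cck over all fractions (6.74), the lowest of Reln (0.90) and a Calb2 level of −0.17.

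In the fraction of each mouse where the isocortex markers peaked, Npy, Vip and Cck were above the median of that mouse in 6 of 6 mice, by 0.70 ± 0.25, 1.27 ± 0.58 and 0.73 ± 0.23 on the log2 scale (SD, n = 6 mice). Calb2 was below it in 6 of 6, at −2.24 ± 0.89 (SD). Sst was above in 5 of 6 and Pvalb below in 5 of 6. In the coronal fractions of the olfactory bulb, Npy was above the median by 2.40 in C and 1.82 in Co, Calb2 by 2.12 and 1.89, and Reln by 1.20 and 1.25, while Sst was at −2.39 and −2.68 and Pvalb at −2.47 and −2.71. In the 4 mice cut in the other planes, Npy was below the median in the fraction of the olfactory bulb markers, at −0.28 to −0.21, Calb2 was at 0.07 to 0.41 and Sst at −0.50 to −0.05. In the coronal fractions of the cerebellum, Pvalb was at 2.60 and 2.79, Calb2 at 1.71 and 1.37 and Reln at 1.20 and 0.85, and Vip at −3.51 and −2.99, and in the other 4 mice Pvalb was at 0.04 to 0.67 and Vip at 0.21 to 0.94. A slice of 1 mm holds several areas. In the mice not cut coronally, the olfactory bulb and thalamus markers peaked in the same fractions, S6, So6, H4 and Ho5. The cerebellum and hippocampus markers both peaked in S2 and in H2. Values of such fractions belong to both areas alike, and all of these values are a description with no test.

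The receptors and partners of these genes were listed by name, with earlier results of these data known, and 17 of 18 had a probe that was tested. Of these, 15 varied over the pairs, against 61.2% of all probes. In the anterior pairs 9 were higher, against 19.9%, and 3 lower, against 27.8%, with a median difference of 0.76 on the log2 scale against −0.11 over all probes. In the middle pairs, set against the mean of both ends, 11 were higher, against 15.5%, and 1 lower, against 19.5%, with a median of 0.80 against −0.06. Among somatostatin receptors, Sstr4 had an anterior minus posterior difference of 3.02 ± 0.13 and Sstr2 of 1.46 ± 0.19 (SE). Sstr3 was at 0.13 ± 0.10 (SE) and did not pass over the pairs (adjusted p = 0.0639 by limma's F test). Its probe was dim, at mean levels of −5.56 anteriorly and −5.68 posteriorly, and was above background in 53 of 61 fractions, so that its flat profile says little. For cholecystokinin, Cckbr, the main brain receptor, was higher anteriorly by 2.85 ± 0.11, and Cckar was lower, at −1.70 ± 0.21 (SE), with 3 of 8 anterior fractions above background. In the sagittal plane, the probe of Cckar was above background in 6 of 6 inner and in none of the 8 outer fractions. Set against the lowest signal above background on each array, its inner level was 7.90-fold higher. The limit of a single probe can lie above that signal, so that a fold of this kind is not a strict lower bound. The neuropeptide Y receptor Npy1r was higher anteriorly by 1.57 ± 0.14, and Npy2r was higher in the middle pairs by 2.09 ± 0.11. Crhbp, which encodes the protein that binds corticotropin-releasing hormone, was higher anteriorly by 3.38 ± 0.11. Of the reelin receptors, Lrp8 did not vary (adjusted p = 0.308) and Vldlr was lower anteriorly, at −0.51 ± 0.09.

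The companions of interneurons had 22 of 24 genes tested, of which 21 varied, against 61.2% of all probes. Anteriorly 12 were higher, against 19.9%, and 7 lower, against 27.8%, with a median difference of 0.58, and in the inner sagittal pairs 11 were higher, against 10.5%, and 2 lower, against 9.09%, with a median of 0.38 against 0.00 over all probes. The transcription factors Dlx1 and Dlx2, which specify forebrain inhibitory neurons, were above background in 8 of 8 anterior and 0 of 8 posterior fractions. Both were higher anteriorly (adjusted p = 2.28e-23 and 2.67e-23 by limma). Set against the lowest signal above background on each array, the folds were 412 and 419, which are not strict lower bounds. Gad1, the enzyme of GABA synthesis, was higher anteriorly by 0.93 ± 0.09 and lower in the middle pairs, at −0.49 ± 0.07. Calb1, the gene of calbindin, and Kcnc1, a potassium channel of fast-spiking cells, were lower anteriorly, as Pvalb was, at −2.42 ± 0.12 and −1.71 ± 0.08, and Kcnc2, a related channel, was higher by 1.06 ± 0.10. Gad2 did not pass over the pairs (adjusted p = 0.079). The errors in this paragraph are SE from limma.

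The mice of a plane differed in level mainly in the coronal plane. Sst, Npy, Cck and Pvalb were higher in Co than in C by limma, against 26.8% of all probes. Npy was higher in Co in 13 of 13 pairs, by 0.33 in c13 to 1.02 in c4, with a mean of 0.74 ± 0.07 (SE, adjusted p = 1.78e-09). Cck was also higher in 13 of 13 pairs (0.38 ± 0.06, SE, adjusted p = 4.79e-06), and Sst in 12 of 13 (0.37 ± 0.06, SE, adjusted p = 1.01e-05). Pvalb was higher in 11 of 13 (0.27 ± 0.10, SE, adjusted p = 0.0287), which was lost without C1, C5, C9 or their partners, at an adjusted p of up to 0.0797. Calb2 did not pass with the probe used (0.19 ± 0.16, SE, adjusted p = 0.364), but did with its other probes, at 0.51 and 0.52. Between So and S, none of the 7 passed by limma, where 30.1% of all probes passed. None of the 7 had an unadjusted p under 0.05 there, where 14470 of 36572 probes had. Between Ho and H none passed, where 5.35% did. Of the 7, 2 had an unadjusted p under 0.05 there, Pvalb and Calb2, as had 6751 of 36565 probes. The mouse, the angle and, in the coronal and most sagittal fractions, the scan day cannot be told apart in these differences.

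The anterior minus posterior difference itself was set against each other in Co and C. It was larger in Co for Vip by 0.68 ± 0.15 (SE, adjusted p = 0.0403 by limma), where 3.08% of all probes passed, and Cck was at −0.47 ± 0.12 (SE, adjusted p = 0.0532). The posterior fractions include Co3, where the probe of Vip was not above background, and the call of Vip was lost without any 1 of 22 coronal arrays, at an adjusted p of up to 0.101 without C1 or Co2. For the ventral minus dorsal and inner minus outer differences, none of the 7 passed between the mice (adjusted p of at least 0.451). No probe at all passed there, with 0 of 36556 for ventral minus dorsal and 0 of 36564 for inner minus outer. These tests therefore cannot tell whether the mice differed or were alike in these genes.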

How the data were processed

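RNA of each of the 61 fractions was labeled with a single dye and hybridised to 1 Agilent array of the whole mouse genome. The authors deposited the spot intensity from Agilent Feature Extraction 9.1.3.1, after background subtraction and with no normalization between arrays, and a table of intensity values that they had normalized per array (linear scale, column medians from 1.76 to 1.98). That table gave the scanner values divided by 1 constant per array, within an SD of 0.028 on the log2 scale (median over arrays), and 0 of its columns were left unused.

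Here, outlier-flagged spots were left out (1 to 173 per array), each of 41174 probes was given the mean log2 intensity of its spots, and the 75th percentile of the array was subtracted. The 36573 probes with a spot well above background on at least 1 array were tested with limma 3.58.1 in R 4.3.3 (lmFit, eBayes, Benjamini-Hochberg over all probes of a test, threshold 0.05), with the pair as the factor, 28 residual and 1.88 prior degrees of freedom. A test lacks the few probes whose spots were flagged in a needed fraction. Differences between mice had the pair and the mouse of the plane in the model. The model was tested on simulated data. Anterior was c10 to c13, posterior c1 to c4, middle c5 to c9, inner s4 to s6, outer s1, s2, s8 and s9, ventral h4 to h6, dorsal h1 to h3, right s6 to s9 and left s1 to s4. The middle was set against the mean of the anterior and posterior pairs. S fractions, labeled from 2, were renumbered from 1 as in the study.

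Symbols came from the RefSeq accession of a probe (22951 probes). Profiles were compared by Pearson's r with every gene whose brightest probe was above background in at least 31 fractions and measured in all of them. The 7 genes, both lists and the 3 nearest genes of each were the genes to name, of which 1 is not reported here. Members and lists were chosen with earlier results of these data known. The mouse pairs the fractions: differences within pairs of the same mice correlated over probes with a median r of 0.34 in the coronal, 0.23 in the sagittal and 0.11 in the horizontal plane. Slide and mouse were entered as blocks in alternatives, as was the scan day. Promoter sequences came from RefSeq. Figures used matplotlib 3.10.9 in Python 3.11.15.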

Additional observations from a re-analysis of the deposited data

Results flagged for a closer look

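In the 9 sagittal and 6 horizontal pairs, the difference between the mice was searched for 1 pair far from the others in 14 sets (7 genes in both planes), of which about 1 in 20 would be found by chance. Pair s9 stood apart for Sst, where So10 was 0.68 below S9 (So minus S of −0.68, log2), and for Cck, with −0.48. In the same pair, the genes not flagged were at −0.86 for Npy, −0.33 for Vip, 0.81 for Pvalb, 2.02 for Calb2 and 0.30 for Reln. Pair h1 stood apart for Calb2, where Ho2 was 1.52 above H1, and for Reln, with 0.36. Pair s9 holds the last sagittal fraction of both mice, and pair h1 the first fraction of H and the second of Ho.

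The anterior minus posterior difference of Vip was larger in Co than in C by 0.68 on the log2 scale, by the test of the difference itself (limma, adjusted p = 0.0403). Leaving out any of 22 of the 56 arrays took it above 0.05, up to 0.101.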

How the results depend on the processing

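Counts of the 7 genes that passed changed by over 1.5 times in these cases. With each C, S or H fraction paired with the Co, So or Ho fraction of its own number, 0 of 7 varied over the sagittal and 0 over the horizontal pairs, 3 differed between middle and ends, 3 between inner and outer pairs, and 0 in the coronal test of Vip and Cck between the mice. With only the pairs of 1 plane in the fit, 2 varied over the sagittal pairs. With the slide as a fixed block, 4 differed between anterior and posterior pairs, and with normexp and quantile normalization, 2 differed between the mice in that contrast. Without 1 array at a time, 3 to 5 genes passed over the sagittal pairs and 0 to 1 in the test between the coronal mice. With fractions paired by their own number, the calls of Sst over all pairs (adjusted p = 0.053), of Sst (0.119) and Calb2 (0.324) between middle and ends, of Sst (0.340) and Calb2 (0.0674) between inner and outer pairs and of Cck between Co and C (0.0692) were also lost. The call of Pvalb between Co and C was lost with the slide as a random block (adjusted p = 0.205) and with normexp and quantile normalization (0.0603), under which the sagittal call of Sst was lost as well (0.0747), and that of Reln between anterior and posterior pairs with the slide as a fixed block (0.844). No call of the 7 genes changed direction. With the mouse as replicate block, all 7 varied over the pairs, and beside the calls of Npy and Pvalb given above it changed no other. Scaling to the median, the authors' table and all probes changed no call of the 105 tested. With probes above background on all arrays, Vip was not tested. The ANOVA without moderation kept all 7 over the pairs. The slide and scan day follow position or mouse in most series, and their part was not tested further. The number of arrays limits the precision, and Vip was not above background in Co3.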
